A study of Rattus norvegicus with 3 samples.

Results

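The array labelled Sham gives the transcript abundance of rat brainstem after a sham procedure, in common use a mock operation without the injury, and it is described here by itself. It is 1 of 3 Affymetrix arrays, the others being labelled TBI, the usual abbreviation of traumatic brain injury, and Hand Acu, read here with the series title as acupuncture by hand. Every array carries brainstem RNA taken 1 h after modelling, the labels do not say whether the Hand Acu rats were also injured, and strain, sex and age of the rats are not given in them. The RNA of 5 rats was mixed before labelling, taken here to mean 1 pool for each group, so a group is 1 array with no replicate. Genes were ranked by the log2 of their MAS5 signal on the sham array, using probe sets that carry exactly 1 gene symbol and, for each gene, the brightest of them. Of 31042 probe sets that are not controls, 20826 carry 1 symbol, and they gave 14217 genes. Of these, 742 belong to 48 lists of genes for neurons, transmitters, glia, vessels, metabolism and, for contrast, tissues outside the brain, out of 853 genes listed.

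The brainstem joins the spinal cord to the forebrain. It holds the motor and sensory nuclei of the cranial nerves, the nuclei that make most of the serotonin and noradrenaline of the brain, and the long fibre tracts, whose myelin is made by oligodendrocytes. Fast transmission in it runs on glutamate, GABA and, as in the spinal cord, glycine, and Hox genes, which set position along the body axis, mark its hindbrain part during development.

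Signals in the text are levels on the log2 scale unless a difference is named. A MAS5 signal combines the perfect-match and mismatch probes of a probe set, so its height also depends on how well those probes bind, and a place in the ranking is that of probe sets, not a count of molecules. How far probe sets of the same gene differ can be read on the array itself, though the cause of the differences was not tested. Among the 3061 genes with exactly 2 usable probe sets, the gap between both was a median of 1.94 and reached 4.90 at the 90th percentile. The connexin gene Gja1 had probe sets at 13.71, 9.01 and 4.87, and the apolipoprotein gene Apoe had 13.06 and -0.20. Ribosomal proteins are needed in equal number in every cell, and 38 of their 42 genes lay in the top 10%, with a median of 12.98, yet Rps13 stood at 6.27, Rpl28 at 6.08 and Rpl30 at 3.74. A dim probe set therefore leaves the abundance of its transcript unknown. The other arrays carry other pools of rats under other treatments, so they are no repeat of the sham sample, but bright genes read nearly alike on them. The same probe set differed between the sham and TBI arrays by a median of 0.07 in the brightest 10% of genes and by 0.97 in the dimmest 10%.

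A floor was set at 7.45, the median of all probe sets that are not controls. At or above it stood 9222 genes, 64.9% of all, more than the median implies because the brightest probe set stands for each gene. This 64.9% is the background for the counts of list members above the floor given below. The top 10% of genes, 10.0% by construction, began at 11.16, and the brightest gene reached 14.44. Of the 1422 genes in it, 1356 were also in the top 10% on TBI and 1352 on Hand Acu. The 3' to 5' signal ratio of the β-actin control probes was 5.58 for sham, 6.37 for TBI and 6.69 for Hand Acu, and that of the Gapdh control probes was 1.25, 1.20 and 1.28. The 3' probes of β-actin thus read brighter on every array. Whether the place of a probe set along its transcript lowered dim readings was not tested. In these bulk samples fewer cells of a type and less RNA per cell cannot be told apart.

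The 30 brightest genes were a mixture of housekeeping, glial and neuronal transcripts. COX1 and COX2, the symbols of the mitochondrially encoded subunits of cytochrome oxidase, came first at 14.44 and 14.42. They were followed at 14.18 by Sparcl1, a matricellular protein secreted by astrocytes, by Tmsb4x, the actin-binding thymosin β4, at 14.15, and by the ribosomal gene Rps29 at 14.15. Zwint stood at 14.14 and Cst3, the protease inhibitor cystatin C, at 14.07. Myelin gave Mbp at 14.04, Mobp at 13.87 and Cldn11, the tight junction claudin of myelin, at 13.71. Neurons gave Ndrg4 at 14.02, Cpe, the carboxypeptidase that trims peptide hormones, at 13.95, Snap25, a SNARE protein of transmitter release, at 13.84, and Vsnl1, a calcium sensor, at 13.75. Other astrocyte genes were S100b at 13.83 and Gja1. The remaining places went to Actg1 at 14.03, Ptgds and Scd2 at 13.98 each, the sodium pump subunit Atp1b1 at 13.97, the thyroxine carrier Ttr at 13.93, Rps23 at 13.89, Calm2 at 13.88, Eef1a1 at 13.80, Rpl26 at 13.79, Selenop at 13.71, Ywhag at 13.70, Cox6c at 13.63, and Dpysl2 and the prion protein gene Prnp at 13.62 each. The top 1% held 142 genes, among them 18 of the 42 ribosomal protein genes, 12 of 23 on the astrocyte list and 6 of 20 of glycolysis. General neuron genes gave 5 of 13, complexes III and IV 5 of 23, complex I 4 of 34, myelin 4 of 26 and ATP synthase 3 of 13. Lists overlap here, with Aldoc on those of astrocytes and glycolysis and Eno2 on those of neurons and glycolysis.

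The classes took very different places. Of 184 metabolism genes 114 (62.0%) lay in the top 10%, against the 10.0% of all genes, and their median was 11.74. The glia lists had 39 of 89 (43.8%) there with a median of 10.20, and the neuron lists 48 of 152 (31.6%) with a median of 9.24. The transmitter lists, with 27 of 219 (12.3%) and a median of 7.58, and the vessel lists, with 8 of 81 (9.9%) and a median of 8.37, held about the background share. The median of all named genes was 8.50. The lists hold genes picked because they are known in these cells, so a high share describes the lists on this array and was not tested.

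**Figure D1:**
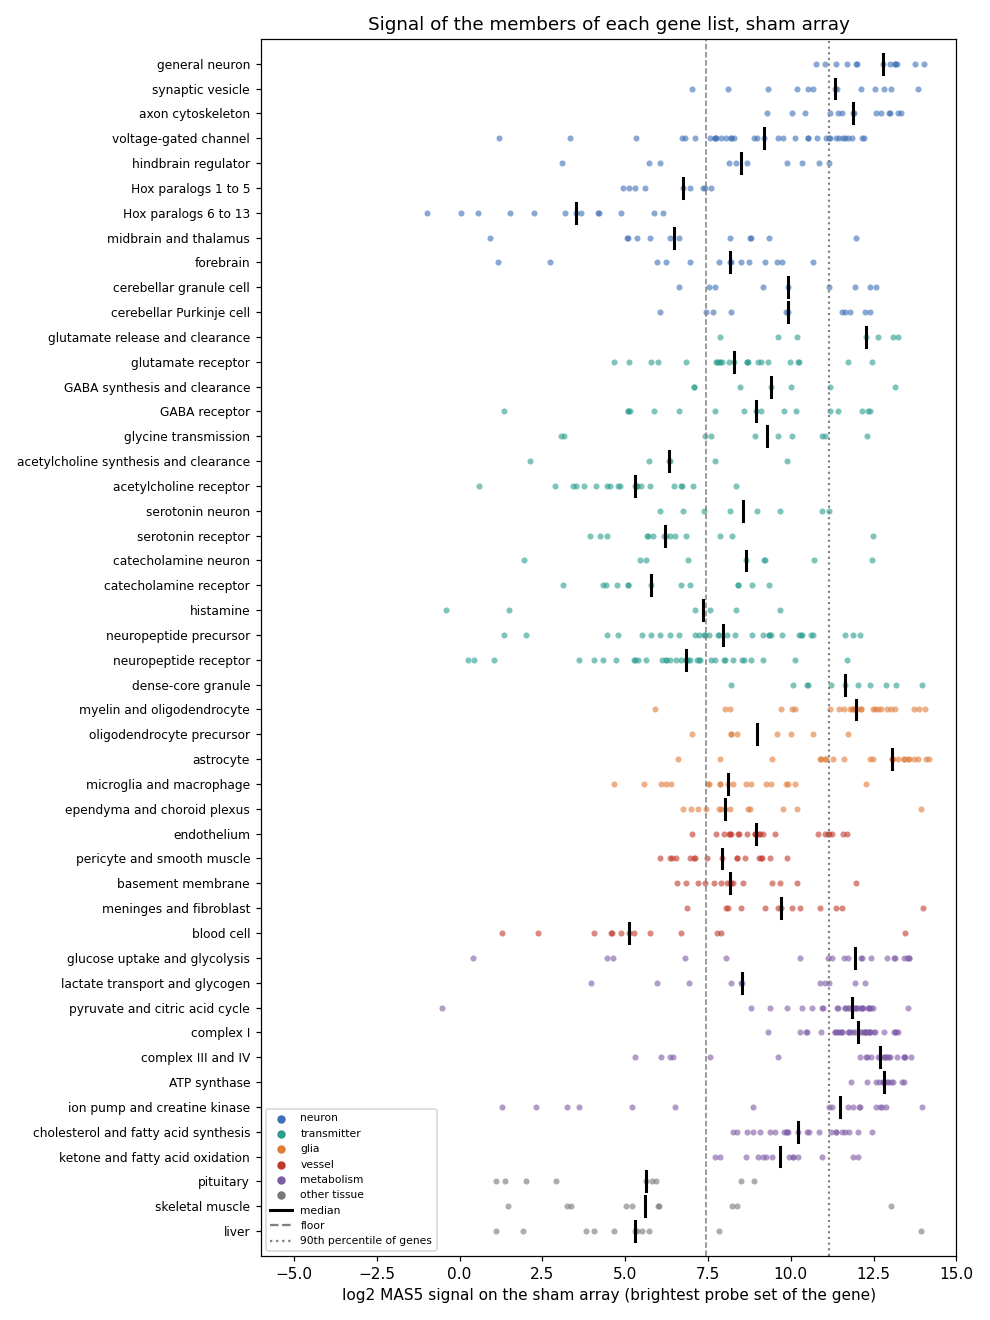
Log2 MAS5 signal on the sham array (x axis) of each named member of the 48 lists (rows), 1 point per gene, coloured by class, with a black bar at the list's median; the dashed line is the floor of 7.45 and the dotted line the 90th percentile of all named genes, 11.16. Every ATP synthase gene lies right of the dotted line, whereas the Hox genes of paralogs 6 to 13 all lie left of the dashed line.

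Genes common to all neurons were bright. Of 13, each stood above the floor and 11 were in the top 10%, with a median of 12.77. Map2, the microtubule protein of dendrites, read 13.20 on the sham, 13.26 on the TBI and 13.32 on the Hand Acu array, and Stmn3, a tubulin-binding protein, stood at 13.14. The dimmest were the RNA-binding proteins Elavl4 at 11.03 and Elavl3 at 10.76. The axon cytoskeleton followed, with 14 of 14 above the floor and 11 in the top 10%. Its neurofilaments, which fill the thick axons of motor and tract neurons, read 13.23 for Nefm, 12.99 for Nefl and 12.96 for Nefh, beside Map1b at 13.32, while Prph, the filament of peripheral and cranial motor axons, was the dimmest at 9.27. Synaptic vesicle genes ran from Snap25 down to Syt2, a calcium sensor of release known from fast hindbrain synapses, at 7.03. Between them stood Sv2b at 13.02, Cplx1 at 12.81 and Vamp1 at 12.54, and 12 of 13 were above the floor.

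Voltage-gated channels spread more widely, from 1.20 to 12.20 with 29 of 35 above the floor. The brightest were potassium channels of fast-firing neurons and axons, Kcnc1 at 12.20, Kcna2 at 12.15 and Kcnc2 at 11.84, and the sodium channel Scn1a at 11.73. The dimmest were the sodium channel of pain fibres, Scn10a, at 3.34 and the pacemaker channel Hcn4 at 1.20. Kcnc2 had 6 probe sets that reached down to 2.62.

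The label brainstem was checked against regional genes. Among regulators of the hindbrain 7 of 10 stood above the floor, near the 64.9% of all named genes, led by the Hox cofactors Pbx3 at 11.16, Meis2 at 10.86 and Meis1 at 10.33 and by En2, of the midbrain and hindbrain boundary, at 9.88. None of these was in the top 10%. Phox2a, the regulator of noradrenaline neurons and cranial motor neurons, stood at 5.73 and Tlx3, of sensory relay neurons, at 3.10. Of the Hox genes named, 9 were of paralogs 1 to 5, which cover the hindbrain and upper cord, and 13 of paralogs 6 to 13, which are expressed further down the body axis. The first group had a median of 6.74 and reached the floor with Hoxb2 alone, at 7.58, 7.66 on TBI and 7.44 on Hand Acu. The second had a median of 3.50, none at the floor, a highest value of 6.14 for Hoxb6 and a lowest of -0.98 for Hoxa9. The sham array gave the lowest of the 3 signals for 15 of the 22 Hox genes, against 36.8% of all named genes. All of them but Hoxb2 were below its floor, and signals differ most between arrays among dim genes. Genes read in 1 pool are also not repeats. Hoxa5 read 7.35 on it, 8.57 on TBI and 8.34 on Hand Acu, so that the others passed 7.45 and the sham array did not.

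**Figure D2:**
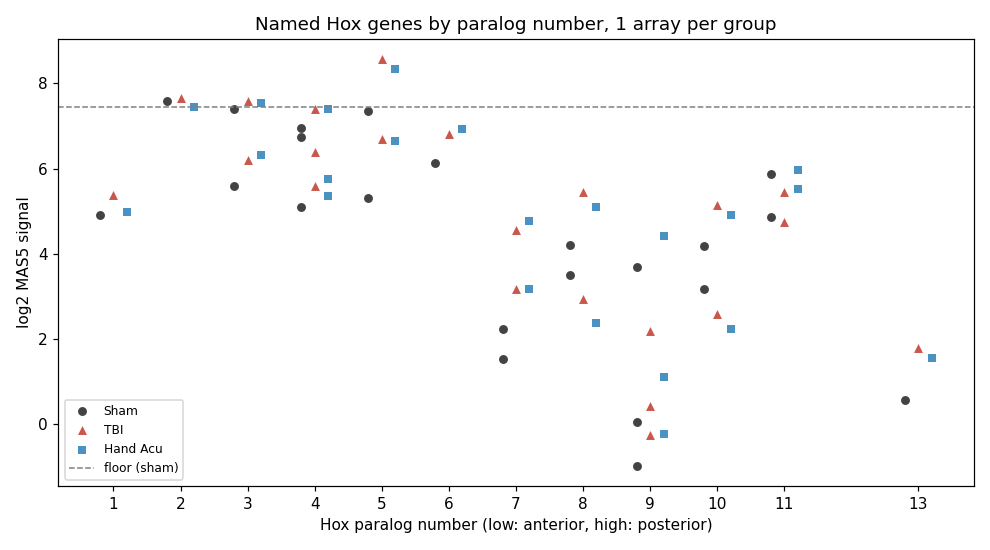
Log2 MAS5 signal (y axis) of the 22 named Hox genes by paralog number (x axis), 1 point per gene and array, with the arrays slightly offset and the floor dashed. On the sham array only Hoxb2 reaches the floor of 7.45, and all 13 genes of paralogs 6 to 13 lie below it.

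Several genes known from the cerebellum, next to the brainstem, were brighter than these. Of 9 genes of cerebellar granule cells 8 were above the floor and 4 in the top 10%. Neurod1, a regulator of granule cells, read 12.58, 11.99 on TBI and 12.12 on Hand Acu, and Gabra6, the GABA receptor subunit of granule cells, 12.38 against 11.76 and 11.69. Reln read 11.95 and Cbln1 11.16, and the dimmest of the list were Zic1 at 7.54 and Barhl1 at 6.61. Of 11 Purkinje cell genes 9 were above the floor and 5 in the top 10%, and Lhx1 at 7.44 and Lhx5 at 6.06 were the dimmest. The calcium release channel Itpr1 stood at 12.39, the calcium buffers Calb1 at 12.24 and Pvalb at 11.80, and Car8 at 11.64, while Pcp2, the most specific of them for Purkinje cells, read 11.56 on the sham, 11.01 on the TBI and 10.80 on the Hand Acu array. Calb1 and Pvalb are also made by brainstem neurons. The sham array was the highest of the 3 for 8 of 9 granule and 9 of 11 Purkinje cell genes, against 32.6% of all named genes, and the lowest for 0 of either list. Whether cerebellum was part of the dissected tissue is not stated in the labels, and its part in these levels was not tested.

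Forebrain genes gave 9 of 14 above the floor, about the share of all named genes, and none in the top 10%. Bcl11b, a regulator of striatal and cortical output neurons, read 10.67, Nrgn 9.73, Ppp1r1b, the DARPP-32 of striatal neurons, 9.59 and Neurod6, of cortical pyramidal neurons, 9.21, whereas the cortical regulator Tbr1 stood at 2.74 and Six3 at 1.17. Midbrain and thalamus genes gave 5 of 12 (41.7%) above the floor, against 64.9% of all named genes. Tcf7l2, the Wnt pathway factor strong in thalamus, stood far above the rest at 11.96, ahead of Lhx2 at 9.35, Nr4a2 at 8.81 and Lhx9 at 8.76. Pitx3, which with Nr4a2 marks midbrain dopamine neurons, was the dimmest at 0.91.

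Most genes of glutamate release and clearance were bright, and the receptors as a list stood near the middle of the ranking. Slc17a6, the vesicular transporter VGLUT2 of brainstem and diencephalic neurons, read 12.26 on the sham, 12.50 on the TBI and 12.40 on the Hand Acu array. Slc17a7, VGLUT1, which cortical and granule cells use, read 9.62, 8.87 and 9.36. Clearance into astrocytes gave Glul, glutamine synthetase, at 13.24 and the uptake carrier Slc1a3 at 13.07, with Glud1 at 12.63. Slc1a2, the other main astrocyte carrier, had 2 probe sets at 7.86 and 7.59, only just above the floor. Of 23 glutamate receptor genes 18 (78.3%) were above the floor, against 64.9% of all named genes. The top 10% held 2 of them (8.7%), and their median was 8.27, against 8.50 for all named genes. The AMPA subunits Gria2 at 12.45 and Gria3 at 11.73 led, followed by the metabotropic receptor Grm3 at 10.26 and Gria4 at 10.23, and the retinal receptor Grm6 at 5.13 and the kainate subunit Grik3 at 4.66 came last.

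Inhibitory transmission was represented first by GABA. Gad1, which makes GABA, read 13.16 on the sham, 13.20 on the TBI and 13.09 on the Hand Acu array, the second enzyme Gad2 9.39, 9.40 and 9.29, and the vesicular transporter Slc32a1, which loads both GABA and glycine, 10.00, 9.84 and 9.90. Aldh5a1 of GABA breakdown stood at 11.17 and Abat at 8.48, and the uptake carriers Slc6a11 at 7.09 and Slc6a13 at 7.08 lay below the floor. Of 17 GABA receptor genes 11 (64.7%) were above it, against 64.9% of all named genes. After Gabra6 came the metabotropic subunit Gabbr1 at 12.33, Gabrb2 at 12.16 and Gabrb1 at 11.41, and the list ended with the retinal Gabrr2 at 5.09 and Gabrp at 1.34.

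Glycine genes ranged from bright to very dim, in both receptor subunits and carriers. Glrb, the receptor's β subunit, stood at 12.29, the cleavage enzyme part Gcsh at 11.03 and the receptor anchor Gphn at 10.93, and the astrocyte carrier Slc6a9 read 10.05. Slc6a5, the neuronal carrier GlyT2 that marks glycine neurons, read 3.14 on the sham, 3.02 on the TBI and 2.11 on the Hand Acu array, and the α subunit Glra3 stood at 3.05. Of the other α subunits, Glra2 was at 9.61 and the adult Glra1 at 7.42, next to the floor. Slc6a5 has 1 probe set here, so its low reading has no second measurement on the array.

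**Figure D3:**
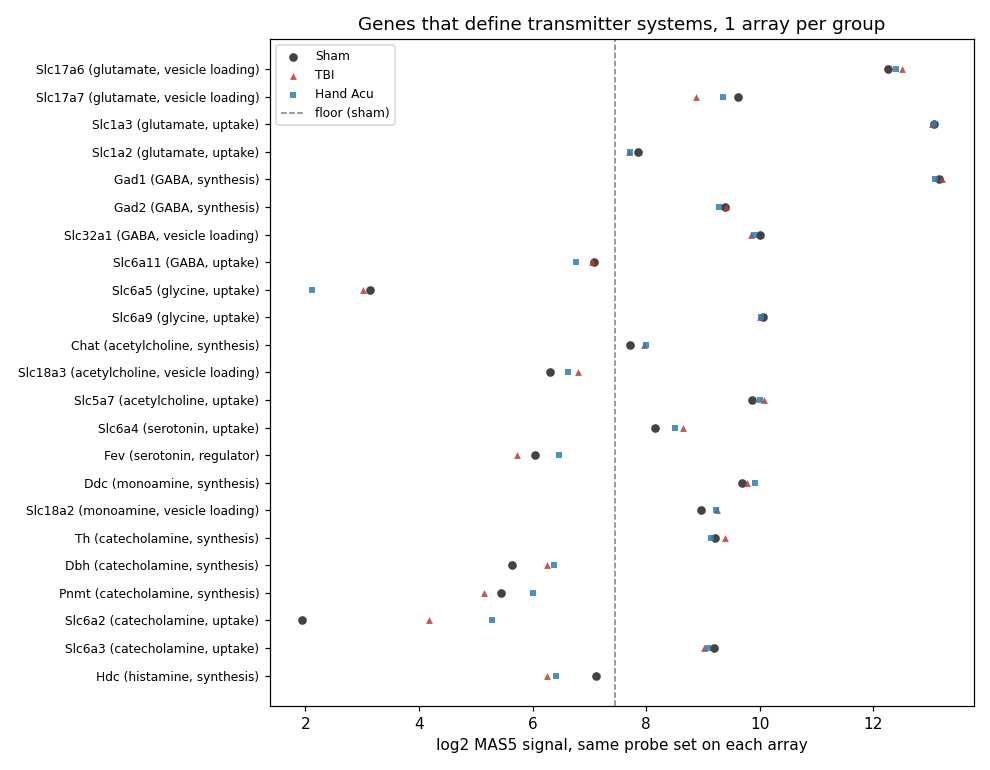
Log2 MAS5 signal (x axis) of 23 genes that define transmitter systems (rows) on the sham, TBI and Hand Acu arrays, with the same probe set on each array and the floor of the sham array dashed. The widest spread between arrays is that of Slc6a2, at 1.94 for sham, 4.17 for TBI and 5.28 for Hand Acu.

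Acetylcholine is made by cranial motor neurons and pontine nuclei. The choline carrier Slc5a7 read 9.87 on the sham, 10.08 on the TBI and 10.01 on the Hand Acu array, and the synthesis enzyme Chat 7.71, 7.96 and 7.99, just above the floor. The vesicular carrier Slc18a3 read 6.31, 6.80 and 6.62, and Isl1 6.35, Bche 5.73 and Lhx4 2.14. Of 21 acetylcholine receptor genes 1 was above the floor, the muscarinic Chrm3 at 8.35. The nicotinic Chrna7 followed at 7.04, Chrna3 at 6.70 and Chrna4 at 6.69, and Chrnb3 was last at 0.60. No other transmitter receptor list had so low a share above the floor.

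Genes of the monoamine neurons stood in the middle of the ranking. The shared enzyme Ddc read 9.68 on the sham, 9.78 on the TBI and 9.91 on the Hand Acu array and the vesicular carrier Slc18a2 8.97, 9.24 and 9.23. The breakdown enzymes Maob, at 11.15, and Maoa, at 10.95, which glia and other neurons make too, were the brightest of the serotonin list. The serotonin carrier Slc6a4 read 8.16, 8.64 and 8.50, and Fev, the regulator that defines serotonin neurons, 6.04. The brain's tryptophan hydroxylase gene was not among the genes named by 1 symbol and has no value here. Among 14 serotonin receptors, Htr2c, abundant in choroid plexus and in neurons, read 12.48 with its dimmer probe set at 8.50, far from Htr7 at 8.22 and Htr2a at 7.86. The other 11 were below the floor, with Htr3b at 4.24 and Htr2b at 3.95 the dimmest.

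Of the catecholamine genes, tyrosine hydroxylase, Th, read 9.21, 9.38 and 9.14 and the dopamine carrier Slc6a3 9.19, 9.01 and 9.08 on the 3 arrays in the order sham, TBI, Hand Acu. Those that mark noradrenaline and adrenaline neurons lay below the floor on all 3. Dbh, which turns dopamine into noradrenaline, read 5.64, 6.25 and 6.37, Pnmt, which makes adrenaline, 5.44, 5.14 and 6.01, and the noradrenaline carrier Slc6a2 1.94, 4.17 and 5.28. Each of these has 1 probe set. Qdpr, which recycles the cofactor of these enzymes, was the brightest of the list at 12.46, followed by Cyb561 at 10.71. Of 13 catecholamine receptors 4 were above the floor, Drd1 at 9.34, Adra2a at 8.82, Adra1b at 8.41 and Drd2 at 8.40, and Drd5 at 4.33 and Adra1a at 3.13 were last. Of 6 histamine genes the receptor Hrh3, at 9.67, Hnmt, at 8.34, and Hrh1, at 7.56, were above it, and the synthesis enzyme Hdc was not, at 7.11. Hrh2 stood at 1.49 and Hrh4 at -0.42.

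Neuropeptide precursors ranged from 1.33 to 12.08. Of 32, 19 (59.4%) were above the floor and 3 (9.4%) in the top 10%, against 64.9% and 10.0% of all named genes. The brightest was Pmch, the melanin-concentrating hormone of hypothalamic neurons, at 12.08 on the sham and 12.44 on each of the other arrays. Cck read 11.87, 11.70 and 12.01, Penk, the enkephalin precursor, 11.65, 11.88 and 11.93, and Cartpt stood at 10.68. Some other peptides of the hypothalamus were above the floor too, whereas Ghrh at 5.50 and Gnrh1 at 4.78 were not. Oxytocin, Oxt, read 10.61 on the sham, 11.19 on the TBI and 10.43 on the Hand Acu array, vasopressin, Avp, 10.34, 10.82 and 10.50, and the orexin precursor Hcrt 8.32, 8.47 and 8.42. Regulators of the hypothalamus, a list added after the data were seen, gave 1 of 7 above the floor, Nkx2-2 at 8.29, with Nkx2-1 at 6.91, Sim1 at 4.90 and Otp at 3.90. The last of the precursors were Pomc, which is also on the pituitary list, at 2.0 and Gcg at 1.33. The sham array was the lowest of the 3 for 22 of the 32 precursors and the highest for 1, against 36.8% and 32.6% of all named genes. Genes read in 1 pool are not repeats. The labels do not say where the dissection ended, and a share of hypothalamus was not tested.

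Most of the machinery that packs peptides was bright. All 11 dense-core granule genes stood above the floor and 7 were in the top 10%. After Cpe came the granins and their kin, Scg5 at 13.19, Scg2 at 12.88 and Scg3 at 12.38, and the dimmest were Chga at 10.06 and the convertase Pcsk2 at 8.20. Of 35 peptide receptors 11 were above the floor, led by the neurotensin receptor Ntsr2 of astrocytes at 11.71, Adcyap1r1 at 10.14, Sstr1 at 9.17 and Npy1r at 8.80. The oxytocin receptor Oxtr, at 0.45, and Galr1, at 0.24, were the dimmest, while their ligands Oxt and Gal, at 10.61 and 8.84, were above the floor.

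Promoters of 3 of these neurosecretory genes are shown because each holds the palindrome TGACGTCA, the cAMP response element to which CREB binds, just upstream of the start. They are RefSeq sequences of the assembly GRCr8, the 200 bases before the start, 5′ to 3′ on the gene's strand, with the match in capitals. Scg2 lies at chr9:88256867-88257066, Vgf, a granule peptide precursor at 11.22 on the sham array, at chr12:25277021-25277220 and Th at chr1:207508219-207508418, each on the minus strand. The match begins 123 bases before the start in Scg2, 90 in Vgf and 69 in Th.
Scg2: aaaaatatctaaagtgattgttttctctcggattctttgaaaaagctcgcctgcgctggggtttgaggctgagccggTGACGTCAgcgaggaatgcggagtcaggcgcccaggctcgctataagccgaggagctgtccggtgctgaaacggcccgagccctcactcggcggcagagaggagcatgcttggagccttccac
Vgf: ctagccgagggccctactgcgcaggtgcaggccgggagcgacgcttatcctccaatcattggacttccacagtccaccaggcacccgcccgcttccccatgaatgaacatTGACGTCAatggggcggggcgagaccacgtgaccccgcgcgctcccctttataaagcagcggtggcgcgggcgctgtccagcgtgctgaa
Th: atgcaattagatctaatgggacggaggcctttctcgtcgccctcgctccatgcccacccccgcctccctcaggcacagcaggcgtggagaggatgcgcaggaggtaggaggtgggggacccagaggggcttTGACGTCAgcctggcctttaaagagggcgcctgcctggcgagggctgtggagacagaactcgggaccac

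In the 300 bases around the start, 250 before and 50 after, the element was found in 3 of 23 promoters of neuropeptide precursors and 2 of 10 of dense-core granule genes, against 2.71% of the promoters of named genes and 1.83% of all promoters in the table. Lists of other genes held it about as often, with 3 of 26 promoters of the pyruvate and citric acid cycle list, 2 of 16 of the endothelial and 2 of 12 of the synaptic vesicle list. These counts are small and describe the lists only.

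The glia lists had a larger share in the top 10%, 43.8%, than the neuron lists, at 31.6%, or the vessel lists, at 9.9%. That order depends on the genes listed, since the neuron class includes Hox genes, regional regulators and channels. The general neuron list had 84.6% there, more than any glia list. Single glia lists ran from 5.3% for microglia and macrophages to 76.9% for myelin and oligodendrocytes. Of 26 myelin and oligodendrocyte genes 25 stood above the floor and 20 in the top 10%. Mbp, the basic protein that compacts myelin, read 14.04 on the sham, 14.11 on the TBI and 14.03 on the Hand Acu array, Mobp 13.87, 14.03 and 13.91, and Cnp stood at 13.13. At the other end were the gap junction gene Gjb1 at 8.02 and Olig2, the regulator that defines the lineage, whose brighter probe set read 5.91, 2.93 and 4.64, while its neighbour in function Olig1 stood at 12.12. The main myelin proteolipid gene was not named by 1 symbol. Precursor genes were lower, with 7 of 8 above the floor and Ptprz1 at 11.73, Pdgfra at 10.67, Lhfpl3 at 10.02 and Vcan at 9.58 leading, and Sox6 at 8.18 and Cspg4 at 7.02 last.

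Of 23 astrocyte genes 22 were above the floor and 16 in the top 10%, with a median of 13.06, the highest of all 48 lists. Sparcl1 read 14.18, 14.29 and 14.17 on the sham, TBI and Hand Acu arrays, the water channel Aqp4 of the astrocyte endfeet 13.53, 13.63 and 13.56, and Gfap, their intermediate filament, 12.38, 12.67 and 12.39. The exceptions were Slc1a2, described above, and the potassium channel Kcnj10 at 6.59, the single member below the floor. Both proteins are abundant in astrocytes, and the signals are of their probe sets only.

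Microglial genes were far dimmer than those of astrocytes, with a median of 8.09, near the 8.5 of all named genes. Of 19, 14 (73.7%) were above the floor and 1 (5.3%) in the top 10%, against 64.9% and 10.0% of all named genes. The lysosomal protease Ctss read 12.26, 12.46 and 12.38, the complement gene C1qa 10.14, the purine receptor P2ry12 9.92 and Fcer1g 9.84. Itgam at 5.56 and the scavenger receptor Cd163 of perivascular macrophages at 4.67 were the dimmest. Of the genes of ependyma and choroid plexus, 9 of 13 (69.2%) were above the floor, near the 64.9% of all named genes. Ttr, which choroid plexus makes in large amount, read 13.93, 14.07 and 13.82, followed by Sostdc1 at 10.20, Rarres2 at 9.75 and the ciliary gene Dynlrb2 at 8.76, and Kl stood at 6.98 and Rsph1 at 6.74.

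Vessels were present at moderate level. Of 23 endothelial genes 22 were above the floor and 3 in the top 10%, with a median of 8.96. The transferrin receptor Tfrc stood at 11.71, the junction protein Tjp1 at 11.59, both also made by other cells, the glucose carrier Slc2a1 at 11.24 and Cldn5, the claudin of the blood-brain barrier, at 11.14. Cldn5 read 10.69 on the TBI and 10.60 on the Hand Acu array. The dimmest were Eng at 7.73 and Tie1 at 7.03. Pericyte and smooth muscle genes gave 10 of 17 (58.8%) above the floor, against 64.9% of all named genes, and 0 in the top 10%. At the top were Mylk at 9.89, Rgs5 at 9.37, Myl9 at 9.12 and Tagln at 9.09, and at the bottom Notch3 at 6.36 and Cnn1 at 6.04. Basement membrane genes gave 11 of 15 (73.3%) above the floor, from Sparc at 11.98, Agrn at 10.19, Nid1 at 9.68 and Lamc1 at 9.42 down to Lama1 at 6.84 and Hspg2 at 6.57. Genes of meninges and fibroblasts gave 12 of 13, from Ptgds, the prostaglandin D synthase, Igf2 at 11.56, Igfbp2 at 11.37 and Mgp at 10.88 down to Fbln1 at 8.05 and the organic anion carrier Slc22a6 at 6.87.

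Blood and other tissues served as a contrast. Of 13 blood cell genes 3 were above the floor. Hbb, a haemoglobin chain, read 13.46 on the sham, 13.79 on the TBI and 13.39 on the Hand Acu array, Pf4 of platelets 7.89 and Alas2 of red cell precursors 7.78, while S100a9 stood at 6.67, Cd3g of T cells at 2.37 and Epb42 at 1.29. Liver genes gave 2 of 11, Ttr and albumin, Alb, at 7.83, with Apoa2 at 1.90 and Apoh at 1.10 the dimmest. Pituitary genes gave 2 of 9, the glycoprotein hormone subunits Cga at 8.89 and Tshb at 8.49, with Prl at 1.37 and Pou1f1 at 1.10. Muscle genes gave 3 of 10. Myh1, a myosin heavy chain of fast muscle, read 13.02 on the sham, 12.83 on the TBI and 13.50 on the Hand Acu array, and all 5 of its probe sets were at or above 10.75, whereas Tnnc2 stood at 8.37, Acta1 at 8.21, Myh4 at 3.35, Atp2a1 at 3.25 and Mb at 1.45. The other members of the muscle list thus did not share the place of Myh1. As a further contrast chosen after the values were seen, 25 keratin genes had a median of 5.31 with 2 above the floor, and 6 olfactory receptor genes a median of 3.83 with none.

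Energy metabolism was the brightest class, though several of its lists spread widely. Of 20 genes of glucose uptake and glycolysis 16 were above the floor and 13 in the top 10%. Pgam1 and Aldoa read 13.57 each, Ldhb, the lactate dehydrogenase subunit of oxidative tissue, 13.52 on the sham, 13.55 on the TBI and 13.52 on the Hand Acu array, and Aldoc, the aldolase of astrocytes and Purkinje cells, 13.42. The dimmest were the liver pyruvate kinase Pklr at 4.44 and the muscle mutase Pgam2 at 0.40. In the pyruvate and citric acid cycle list 27 of 28 were above the floor and 20 in the top 10%, led by Mdh1 at 13.55, citrate synthase, Cs, at 12.47, Pdha1 at 12.43 and Mpc1, a part of the mitochondrial pyruvate carrier, at 12.36. The exception was Pdha2, the form of pyruvate dehydrogenase made in testis, at -0.53, and Pc, of astrocytes, stood at 8.79. Lactate transport and glycogen genes gave 8 of 11 (72.7%) above the floor, against 64.9% of all named genes. Pygb at 12.23, Bsg at 11.94, Gbe1 at 11.14 and Slc16a1 at 11.03 were on top and Slc16a3 at 5.96 and Gys2 at 3.96 last.

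Among the dim members were forms of an enzyme known from other tissues. In 15 pairs of such forms, assembled after the values were seen, the general or brain form was brighter than the muscle, liver, testis or other form on all 3 arrays, and in 14 the second form was below the floor. Pgam1 read 13.57 and Pgam2 0.40, Pdha1 12.43 and Pdha2 -0.53, the calcium pump Atp2a2 12.86 and its muscle form Atp2a1 3.25, Ckb, the brain creatine kinase, 12.05 and the muscle form Ckm 5.22, and Hk1, the hexokinase of brain, 11.13 and Hk2 4.63. The exception was glycogen phosphorylase, where the muscle form Pygm, which astrocytes also make, stood at 8.49. Because the pairs were chosen with the values known, these counts follow from the choice. Tissue forms left out of the pairs stood on either side of the floor. Above it were the muscle forms Pfkm at 11.60 and Ldha at 11.73 and the liver form Pfkl at 8.05, and below it was Pklr at 4.44. These are readings of different probe sets, and the size of a gap to one below the floor is not that of a difference in abundance.

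**Figure D4:**
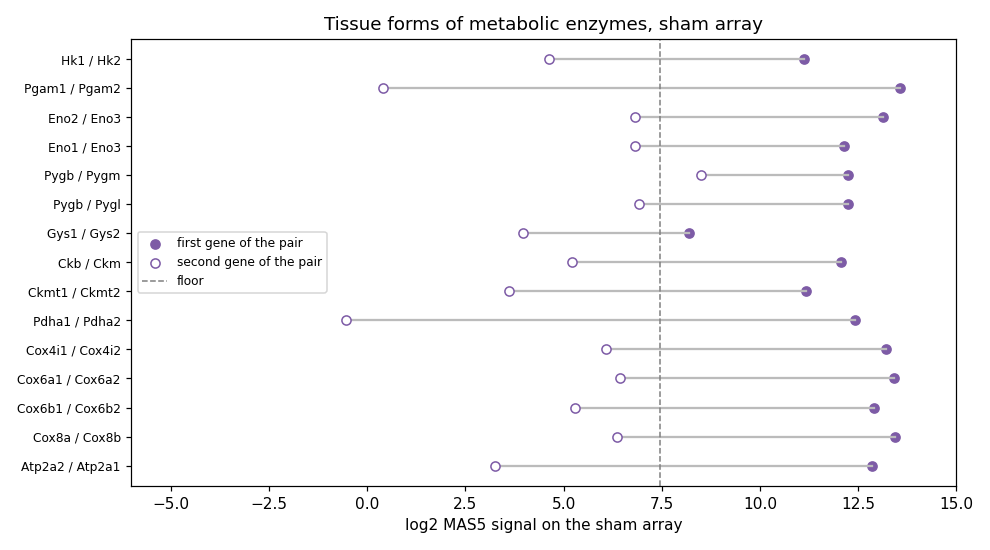
Log2 MAS5 signal on the sham array (x axis) of 15 pairs of metabolic genes (rows), chosen after the values were seen. The general or brain form is filled and the form known from another tissue open, joined by a line, and the floor is dashed. The filled point lies to the right in every pair, and Pygm, at 8.49, is the single open point above the floor of 7.45.

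All 34 genes of complex I were above the floor, 29 of them in the top 10%, with Ndufb4 at 13.24, Ndufa1 at 13.19, Ndufb9 at 13.15 and Ndufa4 at 13.12 leading and Ndufb8 at 10.28 and Ndufs4 at 9.32 last. Of 23 genes of complexes III and IV 19 were above the floor, from Cox6c, Cox8a at 13.44 and Cox6a1 and Cox7b at 13.41 each down to the tissue forms Cox4i2 at 6.07 and Cox6b2 at 5.29. All 13 genes of ATP synthase lay in the top 10%, between Atp5me at 11.83 and Atp5mc3, a subunit of the rotating ring, at 13.42. Atp5f1b, the catalytic β subunit, stood at 13.37, Atp5pb at 13.08 and Atp5f1c at 13.01. No other list of the 48 was in the top 10% as a whole.

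Promoters of 2 of these subunits are shown because they hold CGCATGCG, the palindromic core of the site of NRF1, a factor known to act on nuclear genes of the respiratory chain. Atp5po, of the stalk that holds the enzyme's parts together, read 12.57 and lies at chr11:44657484-44657683 on the minus strand, and Atp5me, of the membrane part, lies at chr14:1464660-1464859 on the plus strand (RefSeq, GRCr8, 200 bases before the start, 5′ to 3′, match in capitals). The match begins 58 bases before the start in Atp5po and 75 in Atp5me.
Atp5po: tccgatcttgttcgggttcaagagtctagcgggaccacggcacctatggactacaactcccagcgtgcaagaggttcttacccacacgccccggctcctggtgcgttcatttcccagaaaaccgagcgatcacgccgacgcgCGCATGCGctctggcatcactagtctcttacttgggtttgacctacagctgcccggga
Atp5me: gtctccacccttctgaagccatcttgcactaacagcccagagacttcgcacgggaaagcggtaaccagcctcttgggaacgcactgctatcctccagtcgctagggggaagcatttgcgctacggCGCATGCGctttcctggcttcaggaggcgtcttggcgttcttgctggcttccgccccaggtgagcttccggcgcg

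This core was found in 4 of 12 promoters of ATP synthase genes, those of Atp5po, Atp5me, Atp5mg and Atp5pf. It was in 1 of 32 of complex I genes and 1 of 18 of complexes III and IV. Outside the respiratory chain it was in 2 of 15 of the GABA receptor list and 1 of 12 of the synaptic vesicle list. The background was 2.91% of the promoters of named genes and 1.66% of all promoters in the table. Such small counts describe the lists only.

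Ion pumps use much of the energy of neurons, and creatine kinases buffer their ATP. The list of both, with the chloride carriers, had 12 of 18 genes (66.7%) above the floor, against 64.9% of all named genes. In the top 10% it had 10 (55.6%). After Atp1b1 came Atp2a2 at 12.86 and the chloride carriers Slc12a5, of neurons, at 12.76 and Slc12a2 at 12.69. Atp1b4 at 2.32 and the testis form Atp1a4 at 1.29 were the dimmest. Each of the 14 genes of ketone and fatty acid oxidation was above the floor, and 2 (14.3%) were in the top 10%. These were Oxct1, which lets brain burn ketone bodies, at 12.02 and Hadhb at 11.89. Acat1 at 10.94 and Hadh at 10.22 followed, and the carnitine transferases Cpt2 at 7.86 and Cpt1b, the muscle form, at 7.72 were the dimmest.

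Cholesterol, the main sterol of myelin, is made within the brain. All 23 genes of cholesterol and fatty acid synthesis were above the floor and 8 in the top 10%, led by the elongase Elovl5 at 12.46, Msmo1 at 12.02, Cyp51 at 11.76 and Idi1 at 11.64. Ebp at 8.39 and Mvd at 8.25 were the dimmest. Idi1 and Fdps, which act in sequence on the isoprene units of the pathway, are shown because their promoters each hold CCAAT, the box bound by NF-Y, more than once. They lie at chr17:66547525-66547724 and chr2:176804817-176805016, both on the minus strand (RefSeq, GRCr8, 200 bases before the start, 5′ to 3′), and capitals mark CCAAT or its reverse complement ATTGG.
Idi1: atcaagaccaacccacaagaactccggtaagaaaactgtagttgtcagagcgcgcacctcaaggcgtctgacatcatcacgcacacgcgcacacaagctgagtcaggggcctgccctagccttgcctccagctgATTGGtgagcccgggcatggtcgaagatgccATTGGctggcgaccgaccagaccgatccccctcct
Fdps: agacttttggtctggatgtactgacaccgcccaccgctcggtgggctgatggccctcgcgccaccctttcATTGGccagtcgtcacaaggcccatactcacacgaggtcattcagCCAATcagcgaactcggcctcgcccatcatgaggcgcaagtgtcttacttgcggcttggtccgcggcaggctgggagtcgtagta

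The box was found on either strand in 15 of 18 promoters of this list and in 12 of 16 of the list of ion pumps and creatine kinases. The background is high for so short a motif, at 36.8% of the promoters of named genes and 37.5% of all promoters.

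Across the whole ranking the promoters of bright and dim genes differed in base composition. A promoter was available for 11700 of the 14217 genes, 13192 promoters in all, since some genes have several. Genes were cut into bins of 10% by rank. In the dimmest bin the median ratio of observed to expected CpG was 0.30 and the median GC content 52.0%, and in the brightest bin they were 0.82 and 62.3%. The GC box GGGCGG, searched on both strands, was present in 27.6% of promoters of the dimmest and 67.9% of the brightest bin, the TATA box TATAAA in 18.0% and 8.20%, and the ETS site CCGGAAGT in 1.17% and 6.04%, with a high of 9.41% in the bin next to the brightest. The TATA share did not fall steadily, with a low of 5.71% just before the brightest 10%, and CCAAT varied little, between 35.1% and 38.4%. Motifs rich in CpG are met more often where CpG is frequent, so these shares are not separate observations. By list, TATA was found in 6 of 8 promoters for the pituitary, 6 of 9 for muscle, 9 of 23 for neuropeptide precursors and 2 of 8 for liver. The background was 8.47% of the promoters of named genes. It was in 0 of 11 for pericytes and smooth muscle, 0 of 8 for Purkinje cells and 0 of 6 for granule cells. Other lists held none either, with 0 of 12 for synaptic vesicles and 0 of 18 for cholesterol and fatty acid synthesis. Counts this small describe the lists only.

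**Figure D5:**
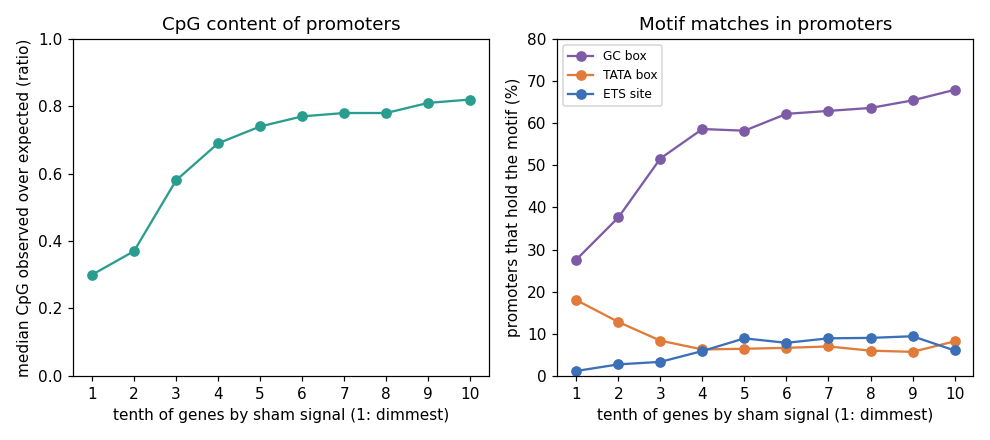
Promoters in bins of 10% of genes ranked on the sham array (x axis, 1 the dimmest): the left panel gives the median ratio of observed to expected CpG in the 300 bases around the start, the right panel the percent of promoters with the GC box, the TATA box and the ETS site. CpG rises from 0.30 to 0.82, most of it over the dimmer bins, and the GC box from 27.6% to 67.9%.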

How the data were processed

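Brainstem RNA of 5 rats per group was hybridised to 1 array per group. The deposited values are log2 signals: the submitters' processing notes name MAS5 without a version, and the values raised to the power of 2 have a mean of 500.0 on the sham array with 2% trimmed at each end, from which the log base and scaling were read. Values were used as deposited. Symbols came from the platform annotation of 2016, and 14167 of the 14217 genes matched a RefSeq table of GRCr8 through their gene identifiers. Detection calls were not used here. Any rescaling of the array leaves the ranking as it is.

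The members and lists were chosen with earlier results of these data known. Named were the 30 brightest genes, the 4 brightest and 2 dimmest of each list, genes that define a transmitter system, Hox genes at or above the floor and genes whose probe sets span the floor. Other genes named were chosen after their values were seen. Since the brightest probe set on the sham array stands for a gene, counts of genes highest on that array lean toward it. The other arrays share their processing with it, hold other pools under other treatments and are set beside it as values only. With 1 array per group no test was run and no error can be given; the number of arrays limits the precision. Promoter motifs, chosen with the ranking known, were matched exactly on both strands. Exact motif matching was tried on random sequences with the motif implanted, whereas the gene counts had no independent check. Python 3.11.15, pandas 2.3.3 and numpy 2.4.6 were used. Alternatives were another probe set for each gene, other floors, the top 25% in place of the top 10%, and leaving out probe sets that can bind several transcripts.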

Additional observations from a re-analysis of the deposited data

How the results depend on the processing

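Where the dimmest probe set stood for each gene, 30 neuron genes were in the top 10% in place of 48. With the top 25% in place of the top 10%, 48 transmitter and 16 vessel genes passed in place of 27 and 8, and ranking only genes above the floor left 4 vessel genes. A floor at the 75th percentile of probe sets left 5250 genes in place of 9222. The other alternatives left each of these counts within 1.5 times, and the metabolism and glia counts stayed within 1.5 times under all that were run. Of the 48 single lists, 20 moved by more than that with the dimmest probe set, 17 with the top 25%, 12 with the mean over a gene's probe sets and 0 with the probe set brightest over all arrays. No paired analysis was possible because each group is 1 array. Signal over background limits the dim genes: places given for genes below the floor are those of their signals, and a dim probe set leaves the level of its transcript unknown.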

Other observations

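Probe sets without a gene symbol hold part of the bright signal of the sham array. Of the 9780 that have none in the annotation used, 3344 (34.2%) were at or above the floor, against 57.1% of probe sets with 1 symbol. At or above the 90th percentile of named genes stood 292 of them, and 4 were brighter than the brightest named gene, the highest at 14.78. Of the 100 brightest probe sets that are not controls, 15 had no symbol and 20 had several. The 24 probe sets of bacterial transcripts added before labelling had a median of 6.99 and ran from 5.67 to 10.46, and the 3 of a bacterial transcript labelled TrpnX read between 1.70 and 2.59.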
